A study of Mus musculus with 9 samples.

Results

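Clusters of neighbouring NF-κB binding sites were examined in *Nfkb2*-/- MEFs, mouse embryonic fibroblasts that were immortalised by serial passage and lack the gene for the p100 precursor. A site was a region in which peaks of at least 2 of the 4 libraries made after 6 h of TNF overlapped by 1 bp or more, and 4739 sites were kept. Sites whose centres lay at most 20 kb from the next were chained along each chromosome. Chains of 4 or more held 113 sites, fewer than the 200 asked for, so chains of at least 3 sites were taken as clusters. Cluster members numbered 356 of 4739 sites (7.51%), in 107 clusters. The members were thus chosen by the presence and position of peaks at 6 h, and what follows about their number, spacing and height at 6 h is a description without a test.

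ChIP-seq was performed with an antibody against RelA (p65 in the labels) or against RelB, in untreated *Nfkb2*-/- MEFs (0 h) and in the same cells after 6 h of treatment with 10 ng/ml TNF. Each antibody and time point had 2 libraries, 8 in all. All cells of the libraries analysed here carried the *Nfkb2* deletion, and wild-type cells were not analysed here. The labels do not say whether the 2 libraries of a group came from separate cultures, so tests between libraries cover a spread that may be technical.

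NF-κB is a family of dimeric transcription factors that includes RelA and RelB and that binds short DNA motifs known as κB sites. In resting cells IκB proteins hold the dimers in the cytoplasm, and TNF receptor signalling through IκB kinase leads to IκB degradation and to nuclear entry of the dimers. p100, encoded by *Nfkb2*, is also an inhibitor and holds RelB in particular. Targets of the pathway include its own inhibitors, chemokines, cytokines, adhesion molecules and survival factors, and many of these genes are known to have several κB sites.

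The peak lists at 6 h held 7052 and 5688 peaks for RelA and 5192 and 6698 peaks for RelB. At 0 h there were 182 and 194 peaks for RelA and 35 and 14 for RelB. Reads within peaks at 6 h ranged from 120352 to 162105 per library, and the total number of reads is unknown. Cluster members took between 6.59% and 7.18% of the reads within peaks in each of the 4 libraries. Strength is given below on the log2 scale as the fold over input in a peak's strongest window, a value of the authors' peak caller, and a library without a peak at a site has no value there.

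The sequences at the heart of the clusters are shown first, because most members share a κB match and the choice of members did not use it. The match was not particular to clusters, with 61.8% of members and 67.2% of other kept sites holding one. The 10 clusters with most sites were taken as the 6 clusters of 5 or more sites and, among the 20 clusters of 4 sites, those with the highest mean log2 fold. For 9 of these 10 clusters, the strongest member with a peak in all 4 libraries and a κB match is given. For the *Ccl2* and *Ccl7* cluster, the only one of the 10 in which all sites had 4 peaks, every site is given. Each line holds 60 bases of the plus strand of the mouse genome NCBIM37 (mm9), with the 10-base match to the κB consensus in capitals. The match nearest to the centre is shown where there were several.
*Bcl3* intron, chr7:20402954-20403013: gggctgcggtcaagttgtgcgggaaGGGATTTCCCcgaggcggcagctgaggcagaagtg
*Il34* intron, chr8:113318544-113318603: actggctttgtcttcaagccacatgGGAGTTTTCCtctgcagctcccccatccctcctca
*Ccl2* cluster, site 1, chr11:81820392-81820451: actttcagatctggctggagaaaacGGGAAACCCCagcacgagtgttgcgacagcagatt
*Ccl2* cluster, site 2, chr11:81825408-81825467: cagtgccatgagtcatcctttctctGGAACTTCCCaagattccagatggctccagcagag
*Ccl2* cluster, site 3, chr11:81829910-81829969: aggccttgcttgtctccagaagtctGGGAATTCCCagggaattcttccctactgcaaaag
*Ccl2* cluster, site 4, chr11:81832989-81833048: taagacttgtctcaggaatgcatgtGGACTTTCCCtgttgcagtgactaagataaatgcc
*Ccl2* cluster, site 5, chr11:81846519-81846578: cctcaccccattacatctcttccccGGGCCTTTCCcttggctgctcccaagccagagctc
*Mid1* intron, chrX:166429150-166429209: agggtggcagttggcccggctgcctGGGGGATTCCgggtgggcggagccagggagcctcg
downstream of *Nfkbia*, chr12:56547830-56547889: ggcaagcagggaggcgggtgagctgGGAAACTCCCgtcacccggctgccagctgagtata
*Tcp11* and *Scube3* cluster, chr17:28241470-28241529: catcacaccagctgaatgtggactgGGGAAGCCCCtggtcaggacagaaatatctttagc
*Nfkbie* promoter, chr17:45692518-45692577: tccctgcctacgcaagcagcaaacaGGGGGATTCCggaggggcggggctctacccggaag
downstream of *Lif*, chr11:4199980-4200039: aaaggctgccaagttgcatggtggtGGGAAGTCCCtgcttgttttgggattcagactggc
*Icam1* intron, chr9:20826480-20826539: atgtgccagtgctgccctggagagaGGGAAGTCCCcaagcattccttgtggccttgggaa

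The clusters were small groups spread over most chromosomes. Of the 107 clusters, 81 had 3 sites, 20 had 4, 4 had 5, 1 had 6 and 1 had 7. Just outside the rule were 437 pairs with 874 sites, and 3509 sites had no neighbour within 20 kb. The largest distance inside a cluster was 19943 bp, and the smallest distance that separated neighbouring sites was 20006 bp.

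Most neighbouring members lay well within the limit of 20 kb. The median distance between neighbouring centres inside clusters was 4784 bp (interquartile range 1198 to 11745 bp, n = 249 pairs). Over all kept sites the median was 195403 bp, and the limit made a shorter distance inside clusters certain. In 52 of the 249 pairs (20.9%) the distance was under 1 kb, and 98 members had a neighbour that close, so some members are adjoining peaks that a wider merging would count as 1 site. Clusters spanned a median of 16127 bp, from 1572 bp in the *Picalm* cluster to 58227 bp in the *Tcp11* and *Scube3* cluster. Together they covered 1738842 bp, or 0.0655% of the genome.

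**Figure D1:**
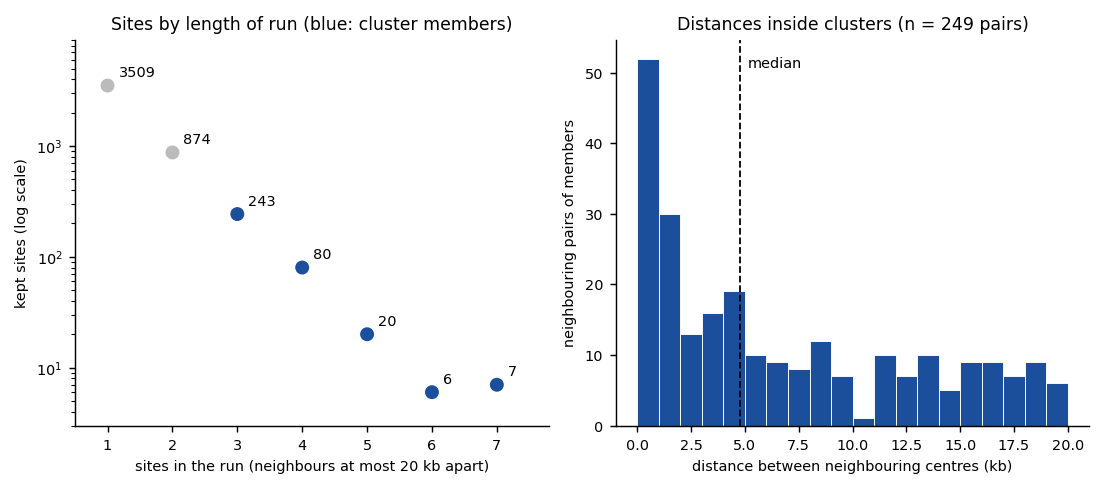
Left, the number of kept sites (log scale) by the number of sites in their run of neighbours at most 20 kb apart, with cluster members in blue and sites outside clusters in grey. Right, the distances between neighbouring centres inside the clusters in bins of 1 kb, where the first bin holds 52 of 249 pairs and the dashed line marks the median of 4784 bp.

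Chromosomes differed in the share of their sites that lay in clusters. Chromosome 17 had 30 members among 198 sites (15.2%, Wilson 95% interval 10.8 to 20.8%), chromosome 10 had 37 of 293 (12.6%) and chromosome 9 had 34 of 277 (12.3%). Chromosome 13 had 4 of 244 (1.64%), and chromosome 14 had 0 of 162 (interval 0 to 2.32%). Chromosome Y had 3 kept sites, and all 3 formed 1 cluster. Sites of a cluster are not independent, so these intervals, here and below, cover counting error only.

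Genes with known roles in the NF-κB response lay beside many of the largest clusters. Of 37310 annotated genes, 302 (0.809%) had a start site less than 50 kb from a member, and 208 of these genes were protein-coding. Within 172 genes of 19 lists of NF-κB targets and comparison genes, 26 lay that close to a member and 120 lay that close to any kept site, which for all annotated genes held for 7147 (19.2%). The lists were drawn up with earlier results of these data known, so the counts describe the lists and were not tested.

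CC and CX3C chemokines, the signals that attract monocytes and lymphocytes, had the largest number near members, 10 of 15 genes, followed by the IκB inhibitors and nuclear IκB proteins with 3 of 6. The 10 chemokine genes lay at only 5 clusters, because these genes are neighbours in the genome. CXC chemokines had 0 of 12 near a member, and 11 of 12 had another kept site within 50 kb. Of all annotated genes near any kept site, 4.23% were near a member, so counts of 0 in short lists set no list apart. The genes of the NF-κB subunits likewise had 0 of 5 near a member and 5 of 5 near another kept site. Toll-like receptors and adaptors (0 of 9), matrix metalloproteinases (0 of 8), oxidative defence and iron genes (0 of 7), collagens and matrix genes (0 of 8) and housekeeping genes (0 of 10) had none near a member.

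**Figure D2:**
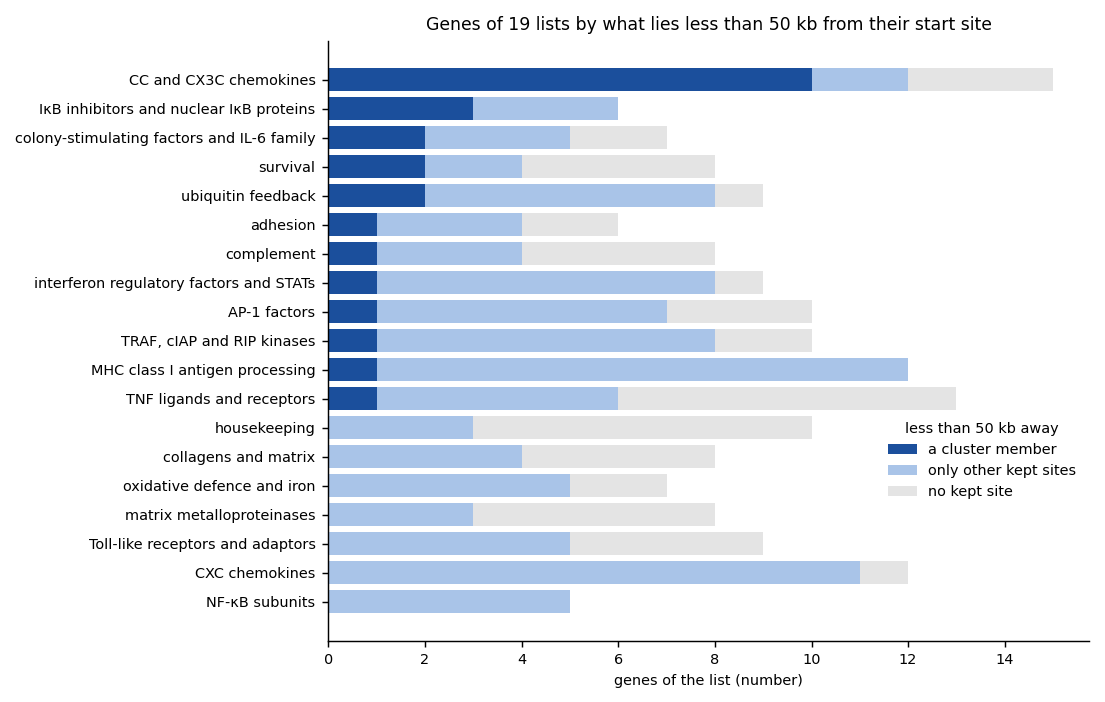
Number of genes in each of 19 lists with a start site less than 50 kb from a cluster member (dark blue), from other kept sites only (light blue) or from no kept site (grey). CC and CX3C chemokines had 10 of 15 genes near a member, and CXC chemokines had 0 of 12. Over all annotated genes the share near a member was 0.809%.

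The largest cluster surrounded *Bcl3*, a nuclear IκB protein that acts with p50 and p52 dimers (chr7:20401828-20428916). Its 7 sites ran from the body of *Bcl3* across its start site to the upstream region, and *Cblc*, *Ceacam16* and RP23-191I16.2 also had start sites within 20 kb. The intronic site 5191 bp inside *Bcl3* had log2 folds of 4.70 and 4.58 (RelA) and 4.17 and 4.09 (RelB). The site at the start of *Bcl3* had 3.24 and 3.51 (RelA) and 3.62 and 3.22 (RelB). An intergenic site 4158 bp upstream had 3.93 and 3.45 (RelA) and 4.35 and 4.53 (RelB). The strongest site for RelA was thus the intron and the strongest for RelB was the upstream site. At the intron and the upstream site the libraries of the 2 antibodies did not overlap. The differences missed the threshold after adjustment over all sites tested (RelA minus RelB 0.60 ± 0.27 and -0.67 ± 0.28 SE, limma adjusted p = 0.291 and 0.264). Such separation of 2 libraries from 2, here and below, is no test, and its share over all sites was not counted. The other 4 members had peaks in 2 or 3 libraries, and 5 of the 7 sites held a κB match, with the intronic match printed above.

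*Nfkbia* encodes IκBα, the main inhibitor that TNF signalling degrades and NF-κB resynthesises, and it had 2 clusters within 50 kb. A cluster of 3 sites (chr12:56591516-56600326) held the promoter-proximal site, 377 bp from the start site, with log2 folds of 4.65 and 4.53 (RelA) and 3.80 and 4.49 (RelB). A second cluster of 5 sites lay downstream of the gene (chr12:56534891-56566253). Where *Nfkbia* was the nearest protein-coding gene, its centres were between 27549 and 53702 bp from the *Nfkbia* start site. Its strongest member had 3.79 and 3.38 (RelA) and 3.57 and 3.30 (RelB). No protein-coding start site lay within 20 kb of that downstream cluster. Of its 5 members 3 held a κB match, whereas in the cluster at the gene 1 of 3 did, and the strong promoter-proximal site, a merged region of 1682 bp, had none within 100 bp of its centre.

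*Nfkbie*, which encodes IκBε, had 4 members within 8574 bp (chr17:45692477-45701050). The promoter site 113 bp upstream of the start site had log2 folds of 4.39 and 4.70 (RelA) and 4.0 and 4.64 (RelB). An intronic site had 4.17 and 4.32 (RelA) and 4.25 and 4.86 (RelB). Between them lay a weak site with peaks for RelA only, at 2.24 and 2.22, and a further site covered the start of *Slc35b2*. *Hsp90ab1*, Gm17441 and *Tmem151b* also had start sites within 20 kb.

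Other genes linked to TNF signalling had clusters of 3 sites. *Tnip1*, which encodes a partner of the ubiquitin-editing enzyme A20, had peaks in all 4 libraries at each of its 3 sites, and all 3 sites held a κB match. *Traf2*, an adaptor of the TNF receptor complex, had the strongest member of all 356. This intronic site (chr2:25389435-25390490) had log2 folds of 5.02 and 4.57 (RelA) and 5.41 and 5.42 (RelB), whereas the other 2 members of the cluster, 1998 and 2644 bp upstream of the start site, stood between 2.13 and 3.91. *Tnfaip2*, a TNF-induced gene, had a site 520 bp upstream of its start site with 2.68 and 3.17 for RelA and 2.35 in the second RelB library. *Tnfrsf1b*, which encodes the TNF receptor TNFR2, had all 3 sites of its cluster upstream, the nearest at 7810 bp. The sites 20952 and 30244 bp upstream lay within *Tnfrsf8*, in a UTR and an intron.

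**Figure D3:**
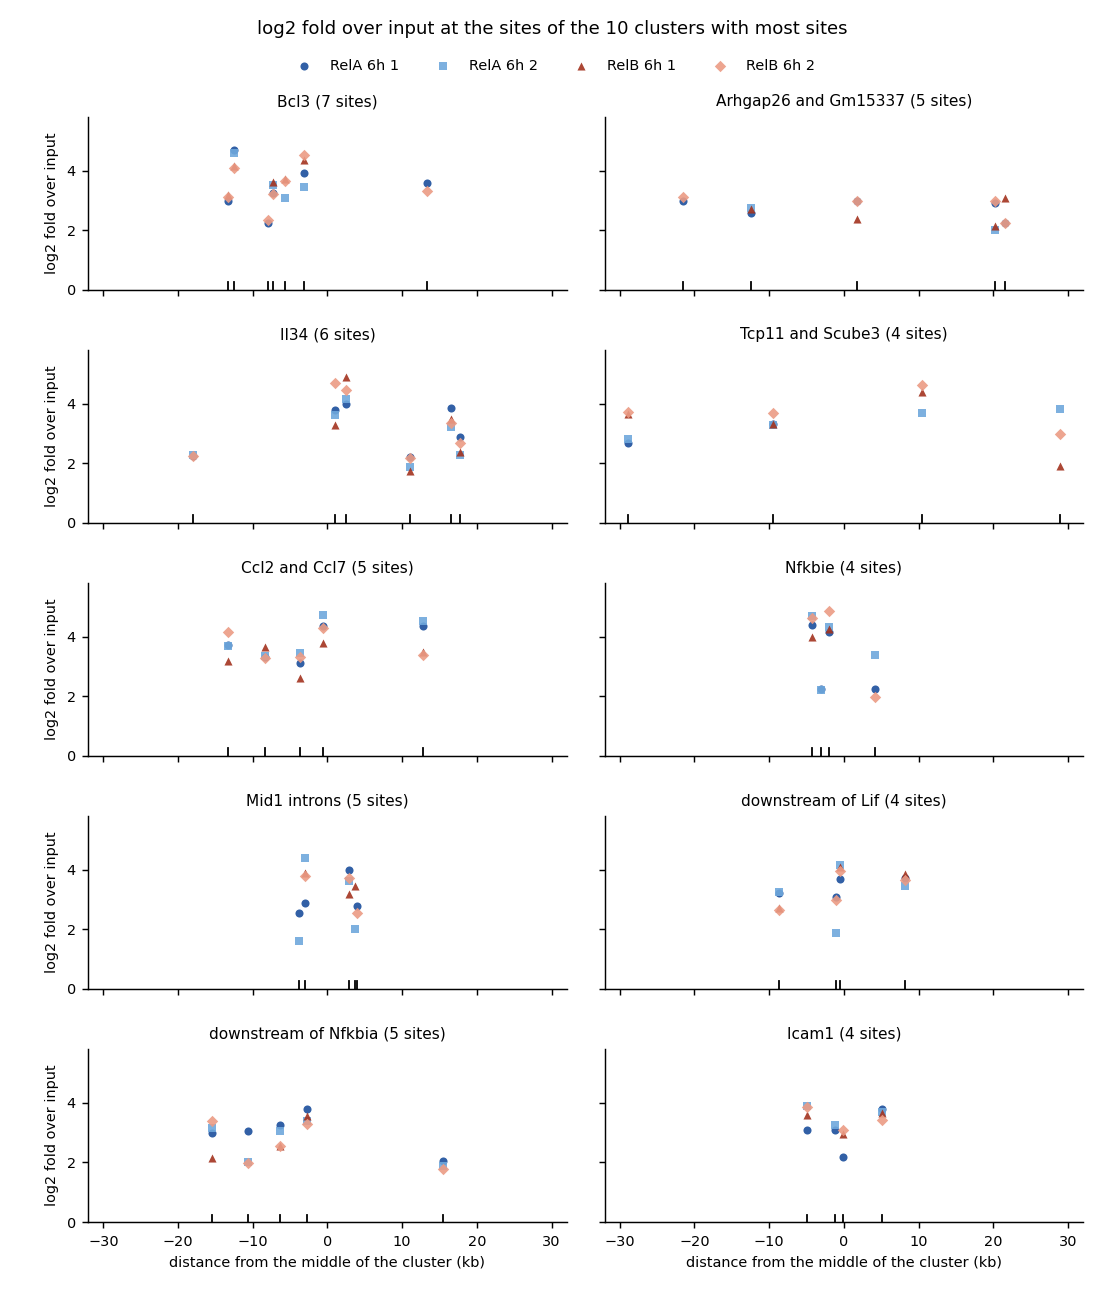
log2 fold over input (vertical axis) at the sites of the 10 clusters with most sites, by distance in kb from the middle of the cluster, for the 2 RelA libraries (blue) and the 2 RelB libraries (red) at 6 h. Black ticks on the horizontal axis mark every site, and a library without a peak at a site has no point there. Strong and weak members stood side by side in the same cluster, as at *Nfkbie* and *Il34*.

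The *Ccl2* and *Ccl7* cluster was bound throughout in every library at 6 h (chr11:81820330-81847115). Both genes encode chemokines that recruit monocytes, and *Ccl11*, an eosinophil chemokine, had its start site 24837 bp from the nearest member. All 5 sites had peaks in all 4 libraries and a κB match, as printed above. The site 16011 bp upstream of *Ccl2* had log2 folds of 4.36 and 4.72 (RelA) and 3.80 and 4.30 (RelB). The site 28621 bp upstream had 3.72 and 3.68 (RelA) and 3.18 and 4.15 (RelB). The libraries of the 2 antibodies overlapped at the site 28621 bp upstream, and at the site 16011 bp upstream both RelA libraries stood above both RelB libraries (difference 0.57 ± 0.29 SE, limma adjusted p = 0.359). The site nearest to *Ccl2*, 2585 bp upstream and within an intron of Gm17268, had 4.36 and 4.51 (RelA) and 3.50 and 3.40 (RelB). Here both RelA libraries stood above both RelB libraries (difference 1.07 ± 0.27 SE), but the difference missed the threshold (limma adjusted p = 0.0865).

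*Ccl5*, which encodes the T cell and monocyte chemokine RANTES, had 4 members (chr11:83343945-83364363). The site at its start, 51 bp upstream, had log2 folds of 3.31 and 3.06 (RelA) and 3.29 and 3.49 (RelB), and the site 4323 bp upstream had 3.25 and 3.51 (RelA) and 3.27 and 3.56 (RelB). The 2 sites had almost the same strength for both antibodies. *Ccl9* and *Ccl6* followed along the chromosome, 28127 and 42578 bp from the nearest member.

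A second group of chemokine genes on chromosome 8 had 2 clusters of 4 sites, one at *Cx3cl1* and *Ccl17* (chr8:97302936-97331723) and one at *Pllp* (chr8:97229602-97238866). *Ccl22*, which like *Ccl17* encodes a ligand of CCR4, lay between them with 7 members within 50 kb. An intronic site of *Cx3cl1*, the gene for fractalkine, had log2 folds of 4.21 and 3.82 (RelA) and 4.19 and 4.22 (RelB). The site 2794 bp upstream of *Ccl17* had 2.89 and 2.12 (RelA) and 4.0 and 4.25 (RelB). The libraries of the 2 antibodies did not overlap there, and the difference is given with the other tests below. *Ccl20*, which encodes the ligand of CCR6, had 3 sites from 14682 to 30504 bp upstream, 1 of them with a κB match.

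Clusters near cytokine genes included those at *Csf1*, *Lif* and *Il34*. *Il34* encodes a ligand of the same receptor as the macrophage growth factor encoded by *Csf1*, and its cluster of 6 sites was the second largest (chr8:113298075-113334287). The strongest *Il34* site, in an intron, had log2 folds of 4.0 and 4.17 (RelA) and 4.91 and 4.46 (RelB). A second intronic site of the cluster had 3.80 and 3.61 (RelA) and 3.29 and 4.68 (RelB). The weakest member with 4 peaks had 2.20 and 1.89 (RelA) and 1.74 and 2.19 (RelB), although it held 4 κB matches. Strength therefore did not follow the number of matches in this cluster.

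The *Csf1* cluster (chr3:107563095-107596597) had the highest mean log2 fold of the clusters named here, 4.01, with 3 sites and 4 peaks at each. The site 15513 bp upstream of *Csf1* held 5 κB matches and had log2 folds of 4.64 and 5.21 (RelA) and 4.32 and 4.46 (RelB). The site 33069 bp upstream had 3.79 and 3.38 (RelA) and 3.74 and 3.50 (RelB). *Lif*, a cytokine of the IL-6 family, had a cluster of 4 sites downstream (chr11:4191673-4209316), between 34292 and 51106 bp from its start site. Its strongest site had 3.70 and 4.17 (RelA) and 4.09 and 3.97 (RelB). The site farthest from *Lif* had 3.72 and 3.45 (RelA) and 3.87 and 3.65 (RelB) and no κB match.

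*Icam1*, an adhesion molecule that leukocytes bind on activated cells, had 4 sites and a κB match in each (chr9:20816160-20826681). The intronic site had log2 folds of 3.80 and 3.68 (RelA) and 3.65 and 3.43 (RelB). The promoter site, 117 bp upstream, had peaks for RelA only, at 3.10 and 3.27. *Icam4*, *Icam5* and *Mrpl4* also had start sites within 20 kb. *B2m*, the light chain of MHC class I, had a site 71 bp upstream with 4.52 and 4.39 (RelA) and 4.09 and 3.81 (RelB). *C3*, the central complement component, had 3 sites, of which the one at its start had peaks for RelA only, at 2.83 and 2.67, and the one 3635 bp upstream had 4.09 in the first RelA library, 4.09 in the second, and 4.09 and 4.0 for RelB.

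*Irf1*, a transcription factor of interferon responses, had 5 members within 50 kb from 2 clusters. The site 357 bp from its start site had log2 folds of 3.36 and 3.17 (RelA) and 3.12 and 2.65 (RelB). A site in the second cluster (chr11:53632343-53632854) held 9 κB matches and had 3.23 and 3.91 (RelA) and 2.68 and 2.67 (RelB). *Gadd45b*, a stress-response gene that limits JNK signalling, had 3 sites within 3242 bp, the site 438 bp upstream with 2.90 and 3.04 (RelA) and 2.88 and 3.29 (RelB). *Ier3*, an immediate early gene with survival functions, had 1 site of each kind. The site 128 bp upstream had peaks for RelA only (4.09 and 4.32), and the site 8538 bp upstream had peaks for RelB only (3.29 and 2.98). *Maff*, a small MAF transcription factor listed here with AP-1 factors, had 2 of its 3 members with peaks for RelA only, at 3.07 and 2.62 near the start site and at 3.65 and 3.17 at 831 bp.

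The remaining clusters among the 10 largest lay at genes outside the lists. The *Mid1* cluster on chromosome X had 5 sites in 8062 bp (chrX:166428189-166436250), most of them in introns of *Mid1*, a ubiquitin ligase gene. The nearest protein-coding start site was that of Gm17379. Its strongest site had log2 folds of 2.89 and 4.39 (RelA) and 3.91 and 3.81 (RelB), so the 2 RelA libraries differed more from each other than from RelB. The cluster on chromosome 18 (chr18:39496300-39539651) lay in introns of *Arhgap26* and Gm15337, and no protein-coding start site lay within 50 kb of it. The 5 sites were weak, between 2.01 and 3.10, and 1 of them had 4 peaks. The *Tcp11* and *Scube3* cluster (chr17:28221912-28280138) was the longest. At its 4 sites, the first site had 2.68 and 2.83 (RelA) and 3.65 and 3.72 (RelB), with both RelB libraries above both RelA libraries (difference -0.85 ± 0.27 SE, limma adjusted p = 0.163).

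Members were about as strong as the other kept sites. The median log2 fold of members with a peak was 2.99 and 3.06 for the RelA libraries and 3.12 and 3.10 for RelB, and for other kept sites it was 2.99 and 2.92 (RelA) and 3.01 and 2.98 (RelB). Clusters combined strong and weak sites. The strongest member of a cluster stood above the weakest by a median of 0.96 on the log2 scale (range 0.19 to 2.80, n = 107 clusters). The mean log2 fold of neighbouring members that both had 4 peaks was unrelated across 74 pairs (Pearson r = -0.01, with both sites measured in the same libraries and over the same input).

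A κB match was found within 100 bp of the centre at 220 of 356 members (61.8%, Wilson 95% interval 56.6 to 66.7%). Among other kept sites the share was 67.2% (65.8 to 68.6%, n = 4383). The search used the κB consensus on both strands, and windows of the same size 1 kb to either side held a match in 15.3% of cases beside members and 11.4% beside other sites. Some of those flanking windows fell on a neighbouring site, and among the 89.7% beside members that did not, 13.1% held a match, against 11.05% beside other sites.

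Members with peaks in more libraries held a match more often, and so did other sites. A match was present at 47.4% of members with peaks in 2 libraries, at 61.4% with 3 and at 72.3% with 4. For other kept sites these shares were 59.7%, 67.2% and 74.0%. The gap between members and other sites was thus widest at sites with 2 peaks, of which 114 were members. In chains of 3 sites 58.8% had a match (n = 243), and in longer chains 68.1% (n = 113), so the difference from other sites changed its sign with the smallest chain. The strongest member of a cluster had a match in 60.7% of clusters and the remaining members in 62.2%. At every site of 21 clusters a match was found, among them the *Ccl2*, *Icam1* and *Tnip1* clusters, and 5 clusters had none, including those nearest *Picalm*, *Slc45a1* and *Stxbp3a*. At least 2 matches were present at 26.7% of members and at 26.7% of other sites.

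The AP-1 motif TGANTCA, which reads the same on both strands and shares no complete match with the κB consensus, was found within 100 bp at 14.6% of members and 17.2% of other sites. In the windows 1 kb away it was found in 6.18% beside members and 6.68% beside other sites. The intervals of members and other sites overlapped (11.3 to 18.7% and 16.1 to 18.3%).

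**Figure D4:**
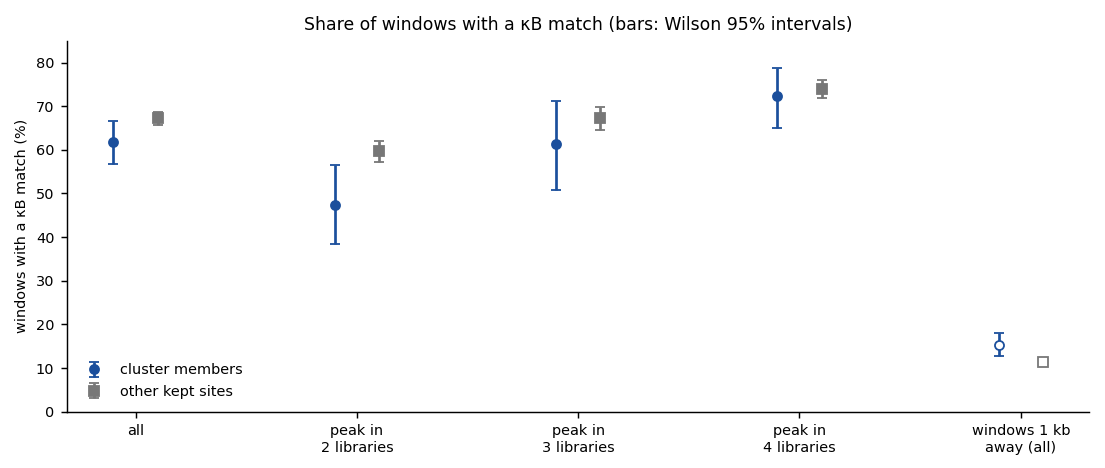
Share of windows of 100 bp to either side of the centre with a κB match, for cluster members (blue) and other kept sites (grey), for all sites and by the number of libraries with a peak, with open symbols for windows 1 kb away. Bars are Wilson 95% intervals, and the share rose with the number of libraries, from 47.4% to 72.3% among members.

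In these descriptive counts, members lay closer to protein-coding start sites than other sites did, but they were not more often within genes. The median distance to the nearest protein-coding start site was 16248 bp for members and 33882 bp for other kept sites. A start site lay within 1 kb of 16.01% of members (12.6 to 20.2%) and of 13.5% of other sites (12.5 to 14.6%). Members were between genes in 53.1% of cases and in introns in 39.6%, against 50.2% and 43.5% of other sites. The GC content of the windows had a median of 50.5% at members and 47.8% at other sites. Of the 107 clusters, 38 lay wholly between genes, 31 wholly within genes, and 28 had no protein-coding start site within 50 kb.

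RelA and RelB were both found in most clusters, which the rule makes likely because each site needed peaks in 2 libraries. A peak at every site of a cluster was found in 50 and 43 of the 107 clusters in the RelA libraries and in 40 and 58 in the RelB libraries. Of the 356 members, 159 (44.7%) had peaks in all 4 libraries, against 38.8% of other sites. Peaks of both RelA libraries and no RelB library were found at 37 members (10.4%), against 8.08% of other sites. The reverse, RelB only, held for 27 members (7.58%, 5.26 to 10.8%), against 12.5% of other sites (11.6 to 13.6%). Sites of RelA only stood in 32 clusters and sites of RelB only in 24, and 6 clusters had both kinds, the *Ier3* cluster among them. These classes rest on whether a peak passed the authors' threshold, which is not a measurement of absence.

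The strength of RelA and RelB was compared at the 1860 sites with 4 peaks, 159 of them members. In limma across all 1860 sites, 8 sites (0.430%) were higher for RelA and 3 (0.161%) were higher for RelB at an adjusted p under 0.05. Among the 159 members, 1 was higher for RelA and 0 were higher for RelB. At an unadjusted p under 0.05 there were 26 members (16.4%), near the 16.8% over all 1860 sites. RelA minus RelB had a standard deviation of 0.46 over these 159 members and 0.49 over the other 1701 sites with 4 peaks. The difference was within a factor of 2 at 94.97% of these members and at 95.24% of these other sites. Members without a peak in every library, among them those of RelA only and of RelB only, were left out beforehand. The shares therefore do not describe all members.

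The member that passed was the site at the start of *Csf1* (chr3:107563095-107563505), which covers the UTR 87 bp from the start site. Its log2 folds were 4.40 and 4.57 (RelA) and 2.94 and 3.21 (RelB). The fullest window held 33 and 36 ChIP reads for RelA and 10 and 13 for RelB. Input reads in the fullest window were 9 and 9 for RelA and 1 and 5 for RelB, although all libraries shared the input. The libraries of the 2 antibodies did not overlap, and RelA was higher by 1.50 ± 0.27 (SE, limma adjusted p = 0.0345). The call was lost without the first RelB library (adjusted p = 0.469) or the second (0.431), without centring of the libraries (0.0564) and with DESeq2 on the window reads (0.687), while the difference stayed between 1.39 and 1.61 and the adjusted p over all alternatives ranged from 0.000159 to 0.687. The other 2 *Csf1* members did not differ past the threshold (0.62 ± 0.29 and 0.05 ± 0.28 SE, limma adjusted p = 0.312 and 0.957).

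The next largest differences toward RelA were at a *Zbtb7c* intron on chromosome 18 and at *Tnip1*. The *Zbtb7c* site, whose nearest protein-coding start site is that of *Smad2*, had log2 folds of 4.95 and 4.17 (RelA) and 3.58 and 3.22 (RelB) (difference 1.24 ± 0.32 SE, limma adjusted p = 0.0916). The site 70 bp upstream of *Tnip1* had 3.72 and 4.0 (RelA) and 3.18 and 2.56 (RelB) (1.08 ± 0.31 SE, limma adjusted p = 0.123). In both cases the libraries of the antibodies did not overlap, which is likely at sites picked for large differences. Neither difference passed in this fit. Over the alternatives the adjusted p ranged from 0.0122 to 0.991 at the *Zbtb7c* site, which passed in 3 of them, and from 0.0405 to 0.991 at *Tnip1*, which passed with the replicate block.

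Toward RelB, the largest difference was at the site upstream of *Ccl17* described above (-1.54 ± 0.31 SE, limma adjusted p = 0.0502). On the ChIP reads of the fullest window, 18 and 13 for RelA and 19 and 25 for RelB, edgeR gave a smaller difference of -0.47 (adjusted p = 0.566, range over alternatives 0.00233 to 0.991). A site 29252 bp upstream of *Cldn1*, a tight junction gene, had log2 folds of 3.37 and 3.36 (RelA) and 4.62 and 4.53 (RelB) (-1.12 ± 0.26 SE, limma adjusted p = 0.0762). The fullest window held 26 and 26 ChIP reads for RelA and 55 and 47 for RelB, over 6 input reads in every library, and edgeR on these reads called it (-0.93, adjusted p = 0.00841, range over alternatives 0.00841 to 0.991). The third site, in an intron of *Tmem168*, had 2.99 and 1.89 (RelA) and 3.07 and 4.15 (RelB) (-1.09 ± 0.41 SE, limma adjusted p = 0.226, range over alternatives 0.0223 to 0.991, with the lowest value without the first RelA library).

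The lean of a member toward one antibody was hardly related to that of its neighbour. Over 74 pairs of neighbouring members with 4 peaks, the RelA minus RelB difference had a Pearson r of 0.08 between the 2 sites. The difference taken from the first and from the second libraries alone correlated at 0.36 over the 159 members, with sites as points that share libraries and input. It rests on single libraries, so the 2 r values are not like for like.

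**Figure D5:**
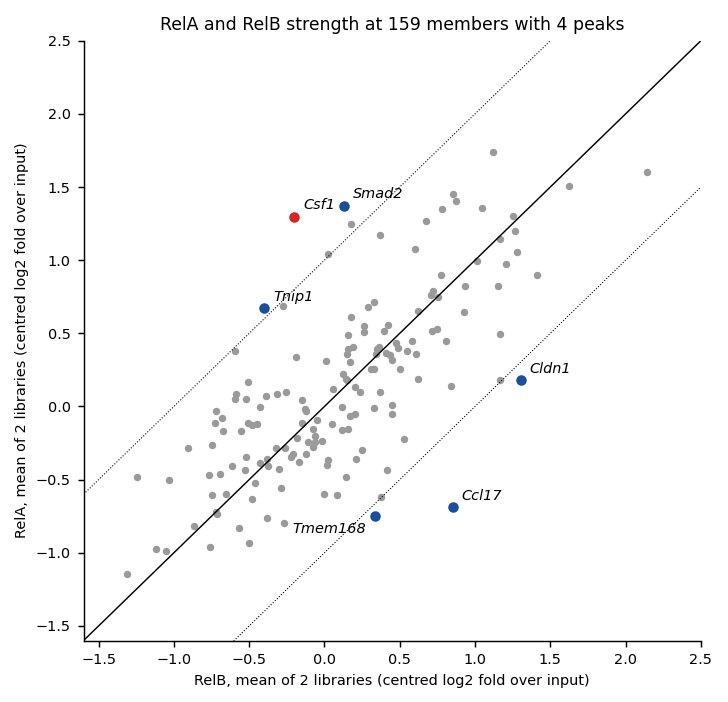
Mean log2 fold over input for RelA (vertical) and RelB (horizontal) at the 159 members with peaks in all 4 libraries, after each library was centred on its median. Dotted lines mark a difference of 1 on the log2 scale. The site called by limma (*Csf1*) is in red, and the other 5 largest differences, labelled by the nearest protein-coding gene, are in blue.

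Whether member sites recur in a library not used to choose them was examined by leaving out each library in turn. Whether the sites formed clusters again in the library left out was not examined. Clusters were found from the other 3 lists, and the share of their members with a peak in the library left out was compared with that of other kept sites. The shares were 81.1% and 68.1% in the first RelA library, 71.2% and 64.6% in the second, 71.5% and 70.2% in the first RelB library and 81.7% and 77.4% in the second. Members were ahead in 4 of 4 libraries, by a mean of 6.30 percentage points (SD 4.96). An exact two-sided sign-flip permutation test gave p = 0.125, the smallest that 4 libraries allow. The 4 differences were not independent, because each library also helped to choose members when another was left out. Among sites called in all 3 other lists the mean was 5.06 points, also with 4 of 4 libraries in the same direction.

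Before TNF, few members had a peak. A peak at 0 h overlapped 6 of 356 members (1.69%, interval 0.775 to 3.63%) and 7 of 4383 other kept sites (0.160%, interval 0.0774 to 0.329%). The intronic *Traf2* site, the strongest member at 6 h, had a peak in both RelB libraries at 0 h, with log2 folds of 3.62 and 3.71 and an FDR of 2e-06 and 1e-06. The promoter-proximal *Nfkbia* site had a peak in the first RelB library at 1.82, close to the FDR limit (0.0942). The strongest *Il34* site had one in the second RelB library at 2.96 (FDR 0.0158). Neither RelA list at 0 h had a peak at these 3 sites.

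The other 3 members with a peak at 0 h were those of chromosome Y (chrY:2858400-2868780). They had log2 folds between 1.46 and 2.04 at 6 h and between 1.54 and 2.09 at 0 h. Input was high there, with 26 to 28 input reads in the fullest window at 2 of the sites against a median of 6 over members in each 6 h library. None of the 3 held a κB match, and the nearest annotated protein-coding start site, that of Gm3395, was at least 308153 bp away. Without chromosome Y, 3 members had a peak at 0 h.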

How the data were processed

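Peak lists of 8 ChIP-seq libraries were analysed. Per the methods of the study, the authors used cutadapt for trimming and Bowtie for alignment to mm9 with unique alignments retained. Peak calling was done library by library in cisGenome, with an *Nfkb2*-/- input combined from both replicates as control. Each deposited peak has a false discovery rate (FDR), a q-value of the call. They also deposited the log2 fold over scaled input reads in the strongest window. The deposited counts are unnormalized ChIP and input read counts in the peak and in its fullest window. All 25055 peaks lay within the authors' limits (FDR under 0.1, fold above 2). Because an FDR limit decides which peaks are listed, absence from a list is not absence of binding, and input shared by all libraries enters every fold.

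Members and gene lists were chosen with earlier results of these data known. Site centres are midpoints of merged peaks, and coordinates count from 1. Matches to the κB consensus and to TGANTCA were searched in NCBIM37 within 100 bp of centres. Genes, introns and UTRs come from the GENCODE annotation of that build. Strength was tested with limma (lmFit, eBayes, Benjamini-Hochberg adjustment) on log2 folds of the 1860 sites with 4 peaks, with each library centred on its median. Chaining, motif and limma steps were tested on simulated data.

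Named were the 10 clusters with most sites (ties broken by mean log2 fold) and protein-coding genes up to 20 kb from them. Listed genes less than 50 kb from a member, members called by limma, the 3 largest differences in each direction and members with a 0 h peak were also named. Clusters named as lowest or highest in a range, or as examples of those with a match at every site or at none, were added after their values were seen, as was the search for flanking windows free of sites. Sequences are the strongest member with 4 peaks and a κB match in each of those 10 clusters that had one, which 9 did, and the other 4 sites of the *Ccl2* cluster were added. The reads, signal tracks and an input list were not used here. No expression was measured, so markers of fibroblasts could not be checked. Alternatives covered the distance, the smallest chain, the lists required, the peak threshold, motif windows, gene distance, normalization, the test, a replicate block and leaving out each library. Versions were R 4.3.3 for limma 3.58.1, edgeR 4.0.16 and DESeq2 1.42.0, and Python 3.11.15 for pandas 2.3.3, numpy 2.4.6, matplotlib 3.10.9, pysam 0.24.0 and scipy 1.17.1, beside samtools 1.23.1.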

Additional observations from a re-analysis of the deposited data

How the results depend on the processing

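The number of members followed from the rule. Against 356 members, a distance of 10 kb gave 186 and 50 kb gave 889, chains of at least 4 gave 113 and of at least 5 gave 33. Joining sites under 1 kb apart gave 202, sites in at least 3 lists 137, sites in all 4 lists 58 and an FDR under 0.01 gave 155. Leaving out 1 library gave 201 to 242. A smallest chain of 3 sites, listed as an alternative, was the rule used. Under the same settings, in the same order, 302 genes near members became 168, 861, 104, 32, 182, 141, 60 and 142, and 165 to 217 without 1 library. A distance to the start site of 20 kb gave 166 genes and of 100 kb gave 557.

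The share of members with a κB match, 61.8%, was 68.14% in chains of at least 4, 72.73% in chains of at least 5, 69.34% with 3 lists and 72.41% with all 4, and 61.98 to 68.66% without 1 library. Windows of 50 bp gave 41.85% and of 250 bp gave 78.93%. The difference from other sites, -5.39 points, turned to 1.388 in chains of at least 4 and to 5.983 in chains of at least 5, and kept its sign in the other 15 settings. The cause was not tested. Members within 1 kb of a start site, 16.01%, became 12.38% with close sites joined and 22.47% within 2 kb. Members with a 0 h peak fell from 6 to 1 in chains of at least 4 and to 3 without chromosome Y. Chains of at least 4, chromosome Y and joined sites for the start-site share were chosen after seeing the data.

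For RelA against RelB, 1 member and 11 sites were called. The replicate block, in which the replicate number was a term, called 7 members and 85 sites. Replicate deviations of the antibodies did not correlate (r = -0.00256 over 1860 sites). Whether libraries of equal number came from the same culture is not known from the labels. Sites with at least 20 window reads gave 6 members and 70 sites, edgeR 5 and 43, DESeq2 0 and 0 (5 members and 49 sites at an unadjusted p under 0.05), and no centring 0 members (24 at an unadjusted p under 0.05). Leaving out 1 library gave 0 to 4 members and 0 to 40 sites. Without the first or the second RelB library limma made 0 calls, with 193 and 203 sites at an unadjusted p under 0.05. With 1 library left in a group, that library was assumed to vary like the others. The held-out difference had the same sign in all 3 alternatives, and 4 libraries cannot give a p under 0.125. Total reads are unknown, so the lists set no lower limit on binding.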
